A study of Mus musculus with 273 samples.

Results

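The miR-148 and miR-152 family of the mouse consists of miR-148a, miR-148b and miR-152. Its 3 members, the hairpins mmu-mir-148a, mmu-mir-148b and mmu-mir-152, were taken by name from 1226 miRNA hairpins counted in 273 small RNA libraries, and all 3 were tested in every tissue. The libraries came from liver, hypothalamus, striatum of the right hemisphere and cortex of the right hemisphere of male wild-type mice of the inbred strain C57BL/6J, 26 weeks old and given no treatment in the labels. Tissue was collected every 3 h across 36 h and labelled by zeitgeber time (ZT), so that ZT0 to ZT12 were sampled in 2 passages a day apart, the first from 0 to 12 h and the second from 24 to 36 h, with different animals. There were 77 libraries of liver, 72 of hypothalamus, 46 of striatum and 78 of cortex. By the identifiers in the labels they came from 79 animals, of which 42 gave all 4 tissues, and a tissue had between 2 and 12 libraries at a ZT, which made 31 groups. The identifier of 1 striatum library differs by a letter from that of libraries of the other tissues at the same time and was kept as written, so the animals may be 1 fewer. The design asks how each miRNA differs between the tissues and whether its level follows the time of day.

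A miRNA is cut from a hairpin precursor into a short mature strand, which guides an Argonaute protein to messenger RNAs that pair with its seed, and the bound messenger is repressed. Members of a family share the seed and so can share targets. In the liver miR-148a is known for repressing the cholesterol exporter ABCA1, and the family is known in human cells for repressing the DNA methyltransferases DNMT1 and DNMT3B.

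The mature strands are shown because they are what the members have in common and where they differ, with the seed, bases 2 to 8 from the 5′ end, in capitals.
miR-148a-3p: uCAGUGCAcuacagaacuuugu
miR-148b-3p: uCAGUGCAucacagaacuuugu
miR-152-3p: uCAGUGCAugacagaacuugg
The sequences are those of RefSeq on GRCm38.p6. The seed CAGUGCA was held by 3 of the 1738 mature mouse sequences in that table, the members themselves. Outside the seed, counted from base 1 at the 5′ end, miR-148b-3p differs from miR-148a-3p by C9U and U10C over 22 bases. miR-152-3p, of 21 bases, differs from miR-148a-3p by C9U, U10G and U20G, and from miR-148b-3p by C10G and U20G. The 2 bases that follow the seed thus tell all 3 apart.

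The deposited counts are per hairpin, so both arms enter a member's count. The precursors are given with both mature arms in capitals.
mmu-mir-148a: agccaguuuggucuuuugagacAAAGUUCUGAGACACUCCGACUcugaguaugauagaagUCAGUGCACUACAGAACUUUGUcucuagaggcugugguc
mmu-mir-148b: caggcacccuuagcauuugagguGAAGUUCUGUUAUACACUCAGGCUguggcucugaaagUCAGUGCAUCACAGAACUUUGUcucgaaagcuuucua
mmu-mir-152: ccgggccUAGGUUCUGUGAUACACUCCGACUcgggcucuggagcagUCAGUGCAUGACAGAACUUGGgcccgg
On the same build the mir-148a hairpin lies at chr6:51269812-51269910 on the minus strand and overlaps no other annotated gene, the nearest being the long non-coding RNA Gm32479 at 13622 bp. The mir-148b hairpin lies at chr15:103285125-103285221 on the plus strand inside Copz1, a subunit gene of the COPI vesicle coat. The mir-152 hairpin lies at chr11:96850393-96850465 on the plus strand inside Copz2, the paralog of Copz1. Neither host gene has an annotated exon over the hairpin, so both members are intronic, and the 3 members sit on 3 chromosomes.

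Total counts ran from 1988671 to 5236177 in liver, from 1079380 to 3954710 in hypothalamus, from 26341 to 4022070 in striatum and from 1164449 to 4980887 in cortex. Levels are given as CPM, the count divided by the library total and scaled to the same total in all libraries. The tissue labels were checked against marker miRNAs of cell types. The 5 hepatocyte markers summed to 314223 CPM in liver, against 2108 in hypothalamus, 2411 in striatum and 2156 in cortex. The 9 neuron markers summed to 8.42 CPM in liver, where 6 of them had no count in any library, against 1739 in hypothalamus, 5843 in striatum and 15294 in cortex. Most of that sum came from a single hairpin, miR-128-1, so the sum says little of the other neuron markers. Its means were 8.22 CPM in liver, 1588 in hypothalamus, 5421 in striatum and 14730 in cortex. There were 5 libraries that stood apart from their tissue by rank correlation with its median profile or by a total under 100000: liver ZT9 replicate 4, hypothalamus ZT0 replicate 9 and ZT9 replicate 8, striatum ZT21 replicate 3 and striatum ZT9 replicate 6, the one with 26341 counts. Pituitary markers summed to 112327 and 81149 CPM in the hypothalamus libraries of this set, against a hypothalamus median of 1077.

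miR-148a was the third most abundant of the 1226 hairpins in liver and set the level of the whole family there. In liver it had 83583 CPM in the lowest library, a median of 95338 and 123204 in the highest, with a mean of 96247 ± 7791 (SD, n = 77). In hypothalamus it had 7517, 10386 and 19851 CPM in the same order, and a mean of 10738 ± 1925 (SD, n = 72). In striatum it had 1247, 5955 and 10995 CPM and a mean of 5867 ± 1674 (SD, n = 46), and in cortex 2349, 3859 and 7417 CPM and a mean of 3845 ± 901 (SD, n = 78). The order of the means was liver, hypothalamus, striatum, cortex. All 77 liver libraries lay above the highest library of every brain region, and all 72 hypothalamus libraries lay above the highest cortex library. Striatum overlapped both of its neighbours in that order: 29 of 72 hypothalamus libraries were above the highest striatum library, and 7 of 46 striatum libraries were above the highest cortex library. How often other hairpins separate tissues without overlap was not examined, here or for miR-148b and miR-152 below.

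miR-148b spanned a narrower range across the 4 tissues than miR-148a, and was highest in cortex. It had 956, 1305 and 1564 CPM as lowest, median and highest library in liver, 763, 982 and 1263 in hypothalamus, 682, 1328 and 1672 in striatum, and 1431, 1683 and 2366 in cortex. The means were 1312 ± 100.1 (SD, n = 77) in liver, 998 ± 95.9 (n = 72) in hypothalamus, 1301 ± 213 (n = 46) in striatum and 1721 ± 164 (n = 78) in cortex. Its order was thus cortex, liver, striatum, hypothalamus, with liver and striatum apart by less than the spread of either. All 72 hypothalamus libraries were below the lowest cortex library, while every other pair of tissues overlapped.

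miR-152 was the scarcest member everywhere. It had 197, 235 and 300.3 CPM as lowest, median and highest library in liver, 50.8, 82.9 and 318 in hypothalamus, 36.1, 68.3 and 114 in striatum, and 49.3, 95.3 and 121 in cortex. The means were 238 ± 18.5 (SD, n = 77) in liver, 91.5 ± 40.2 (n = 72) in hypothalamus, 70.1 ± 16.5 (n = 46) in striatum and 96.6 ± 10.9 (n = 78) in cortex. All liver libraries were above every striatum and every cortex library. The liver range overlapped hypothalamus only through the libraries ZT0 replicate 9 at 318 CPM and ZT9 replicate 8 at 297 CPM, both of which carried the pituitary markers; the next highest hypothalamus library had 141 CPM.

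**Figure D1:**
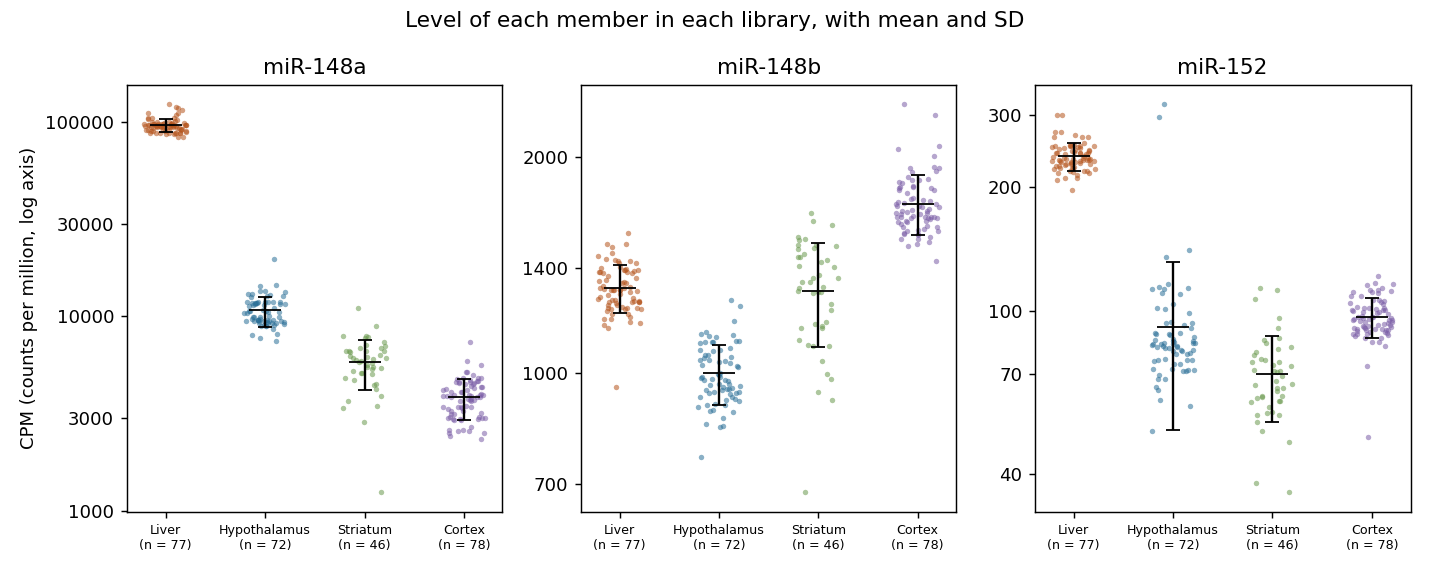
CPM (log axis) of miR-148a, miR-148b and miR-152 in each library of liver, hypothalamus, striatum and cortex; each point is a library and the bars give the mean and SD. miR-148a in liver lies at 83583 CPM or more in every library and at 19851 or less in every brain library, miR-148b stays between 682 and 2366 CPM in all tissues, and miR-152 stands highest in liver apart from a pair of hypothalamus libraries.

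Added together, the 3 members took 9.78% ± 0.782 of all counts in liver (SD, n = 77), 1.18% ± 0.200 in hypothalamus (n = 72), 0.724% ± 0.172 in striatum (n = 46) and 0.566% ± 0.0901 in cortex (n = 78). The make-up of the family changed with the total. miR-148a was 98.4% of the family's counts in liver, 90.7% in hypothalamus, 79.9% in striatum and 67.2% in cortex. miR-148b was 1.35%, 8.58%, 19.0% and 31.1% in the same order of tissues, and miR-152 was 0.245%, 0.769%, 1.09% and 1.75%. Counts of different miRNAs were not corrected for how readily each sequence enters a library, so the shares describe counts and not molecules.

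**Figure D2:**
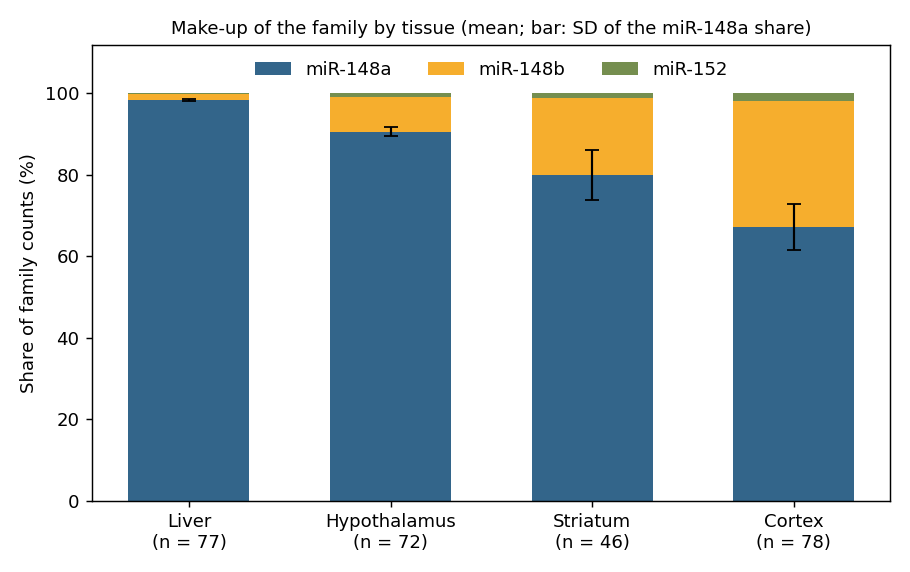
Share of the family's counts (%) held by miR-148a, miR-148b and miR-152 in each tissue, as the mean over libraries. The miR-148b share is 1.35% in liver and 31.1% in cortex, with hypothalamus and striatum between them.

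The ratio of members inside a library does not depend on how libraries are scaled to each other. The mean log2 ratio of miR-148a to miR-148b, with 0.5 counts added to each, was 6.20 ± 0.14 in liver (SD, n = 77), 3.41 ± 0.21 in hypothalamus (n = 72), 2.12 ± 0.51 in striatum (n = 46) and 1.13 ± 0.37 in cortex (n = 78). On a linear scale these were 73.3, 10.7, 4.35 and 2.19 counts of miR-148a for each count of miR-148b. Each of the 6 tissue pairs differed in this ratio, by 0.99 (striatum over cortex) to 5.07 (liver over cortex). The adjusted p was 1.06e-05 in a two-sided permutation test of 100000 resamples. It stands for the smallest p the test can give, 1e-05, after Benjamini-Hochberg adjustment over 18 tests of 3 ratios in 6 pairs. The ratio of miR-148a to miR-152 also differed in all 6 pairs, by 0.59 (hypothalamus over striatum) to 3.37 (liver over cortex), at the same adjusted p by permutation. It averaged 404 counts of miR-148a for each count of miR-152 in liver, 121 in hypothalamus, 80.8 in striatum and 39.0 in cortex. miR-152 over miR-148b had a mean log2 ratio of −2.46 in liver, −3.51 in hypothalamus, −4.21 in striatum and −4.16 in cortex. It differed in 5 of the 6 pairs, and the striatum and cortex values differed by −0.06 with an adjusted p of 0.328 in the permutation test. So miR-148a gained on both of the others from cortex to liver, and miR-152 gained on miR-148b in liver and, to a smaller extent, in hypothalamus.

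Levels between tissues were then tested over all features with edgeR's quasi-likelihood test on the counts, with ZT as a factor and TMM scaling, which sets libraries to each other by a trimmed mean of their log ratios. A call needed a Benjamini-Hochberg adjusted p under 0.05 over 414 features and a log2 ratio of 1 or more. All 3 members were called higher in liver in each of the 3 pairs with a brain region. The share of all features called higher was 27.3% for liver over cortex, 28.7% for liver over striatum and 29.2% for liver over hypothalamus. The 3 comparisons share the liver libraries. miR-148a was higher in liver by a log2 ratio of 6.57 ± 0.07 over cortex (SE), 5.98 ± 0.08 over striatum and 5.13 ± 0.06 over hypothalamus. miR-152 was higher by 3.22 ± 0.06, 3.68 ± 0.07 and 3.33 ± 0.06 over the same regions, and miR-148b by 1.52 ± 0.03, 1.93 ± 0.04 and 2.36 ± 0.04. The largest adjusted p of these in edgeR's test was 1.96e-126. In bulk tissue, fewer cells of a type and less RNA per cell cannot be told apart.

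The sign of the miR-148b difference rested on the scaling. With library totals in place of TMM the log2 ratio of miR-148b was −0.39 for liver over cortex, 0.01 for liver over striatum and 0.39 for liver over hypothalamus, as the CPM means above show, and no call was left. The median over all features moved with it, to −3.23, −3.35 and −3.25 in these pairs, against −1.31, −1.40 and −1.27 with TMM. Relative to that median, miR-148b was 2.83 above it for liver over cortex with TMM and 2.84 with library totals. On the same footing miR-148a was 7.88 above the median for liver over cortex, 7.37 for liver over striatum and 6.40 for liver over hypothalamus, and miR-152 was 4.53, 5.08 and 4.61 above it. miR-148a and miR-152 were called in these pairs under both scalings. Liver libraries lay in 5 library runs (libraries numbered in sequence under the same L code in the labels, which do not say what a run was) and brain libraries in 10, with 1 run in common through 1 hypothalamus library, so tissue and run cannot be told apart for liver.

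Within the brain, miR-148a and miR-148b differed in opposite directions. miR-148a was higher in hypothalamus than in cortex by a log2 ratio of 1.44 ± 0.05, the only member called in that pair, where 17.1% of all features were called higher; edgeR's adjusted p was 1.25e-77. miR-148b was lower in hypothalamus by −0.84 ± 0.03, short of the size a call needs. miR-152 was at −0.11 ± 0.05, with an adjusted p of 0.0408 by edgeR, and at 0.15 with DESeq2's size factors, so its direction is not settled between these regions. In striatum over cortex miR-148a was at 0.59 ± 0.06, miR-148b at −0.41 ± 0.04 and miR-152 at −0.46 ± 0.06, and in hypothalamus over striatum they were at 0.85 ± 0.06, −0.43 ± 0.04 and 0.35 ± 0.06. Each of these 6 values had an edgeR adjusted p of 2.62e-07 or less but none reached a log2 ratio of 1, in pairs where 14.5% and 13.5% of all features were called in either direction.

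The ZT means of all members lay close together in liver, and those of some members spread more widely in the brain regions. In liver the mean of miR-148a was lowest at ZT9 with 94014 ± 8409 CPM (SD, n = 11) and highest at ZT6 with 98469 ± 11483 CPM (n = 12), a ratio of 1.05. For miR-148b the liver means lay between 1249 CPM at ZT15 and 1370 CPM at ZT3, a ratio of 1.10, and for miR-152 between 219.9 CPM at ZT15 and 247 CPM at ZT9, a ratio of 1.12. In hypothalamus the highest ZT mean was 1.16 times the lowest for miR-148a, 1.09 for miR-148b and 1.36 for miR-152, whose highest mean, 104.8 CPM at ZT0, includes the library at 318 CPM. In striatum, which had no ZT15 libraries used here, the ratios were 1.40, 1.24 and 1.27, and the lowest mean of miR-148a, 4700 CPM at ZT21, includes the library at 1247 CPM. In cortex they were 1.35 for miR-148a, 1.11 for miR-148b and 1.10 for miR-152. In 11 of the 12 cases of a member in a tissue the ZT groups with the lowest and the highest mean overlapped. The exception was miR-148b in striatum, with 1402 to 1672 CPM in the 6 libraries of ZT3 and 996 to 1339 CPM in the 5 libraries of ZT21. These groups were picked for their extreme means, and how often those of other hairpins overlap was not examined.

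A 24 h cosine curve was fitted to the counts of each tissue with edgeR's quasi-likelihood test, and in that fit no member was called at an adjusted p under 0.05 in any tissue. The share of all features called was 4.98% in liver (12 of 241), 0.263% in hypothalamus (1 of 380), 0.528% in striatum (2 of 379) and 0.254% in cortex (1 of 393). In liver the fitted distance from trough to peak on the log2 scale was 0.05 ± 0.05 for miR-148a (SE; adjusted p 0.796), 0.08 ± 0.04 for miR-148b (0.506) and 0.03 ± 0.04 for miR-152 (0.898). The upper ends of the 95% intervals were 0.15, 0.16 and 0.10. A distance cannot be negative, but the lower ends of these intervals were. They are thus approximate and set no firm limit on the 24 h swing in liver. In hypothalamus the distances were 0.05 ± 0.12, 0.10 ± 0.08 and 0.07 ± 0.17 for miR-148a, miR-148b and miR-152, in striatum 0.27 ± 0.22, 0.23 ± 0.15 and 0.23 ± 0.16, and in cortex 0.07 ± 0.11, 0.06 ± 0.06 and 0.08 ± 0.06, with adjusted p-values of 0.986 or more by edgeR. The striatum intervals reached 0.69 for miR-148a, so swings up to that size lay within them.

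The curve of a member did not differ detectably between tissues either. In edgeR's test of the interaction of the curve with tissue, the smallest adjusted p of a member was 0.398, for miR-152 in liver and striatum. The share of all features called was 1.34% for liver and cortex, 1.85% for liver and striatum, 0.804% for liver and hypothalamus, 0% for hypothalamus and cortex, 0.519% for striatum and cortex, and 0.811% for hypothalamus and striatum. For hypothalamus and cortex 13 features had an unadjusted p under 0.05, and DESeq2 also called 0. With the animal as a block the calls fell to 3 for liver and cortex against 5 without it, to 1 for liver and striatum against 7, to 0 for striatum and cortex against 2, and to 0 for hypothalamus and striatum against 3, and no member was among the calls of either fit.

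**Figure D3:**
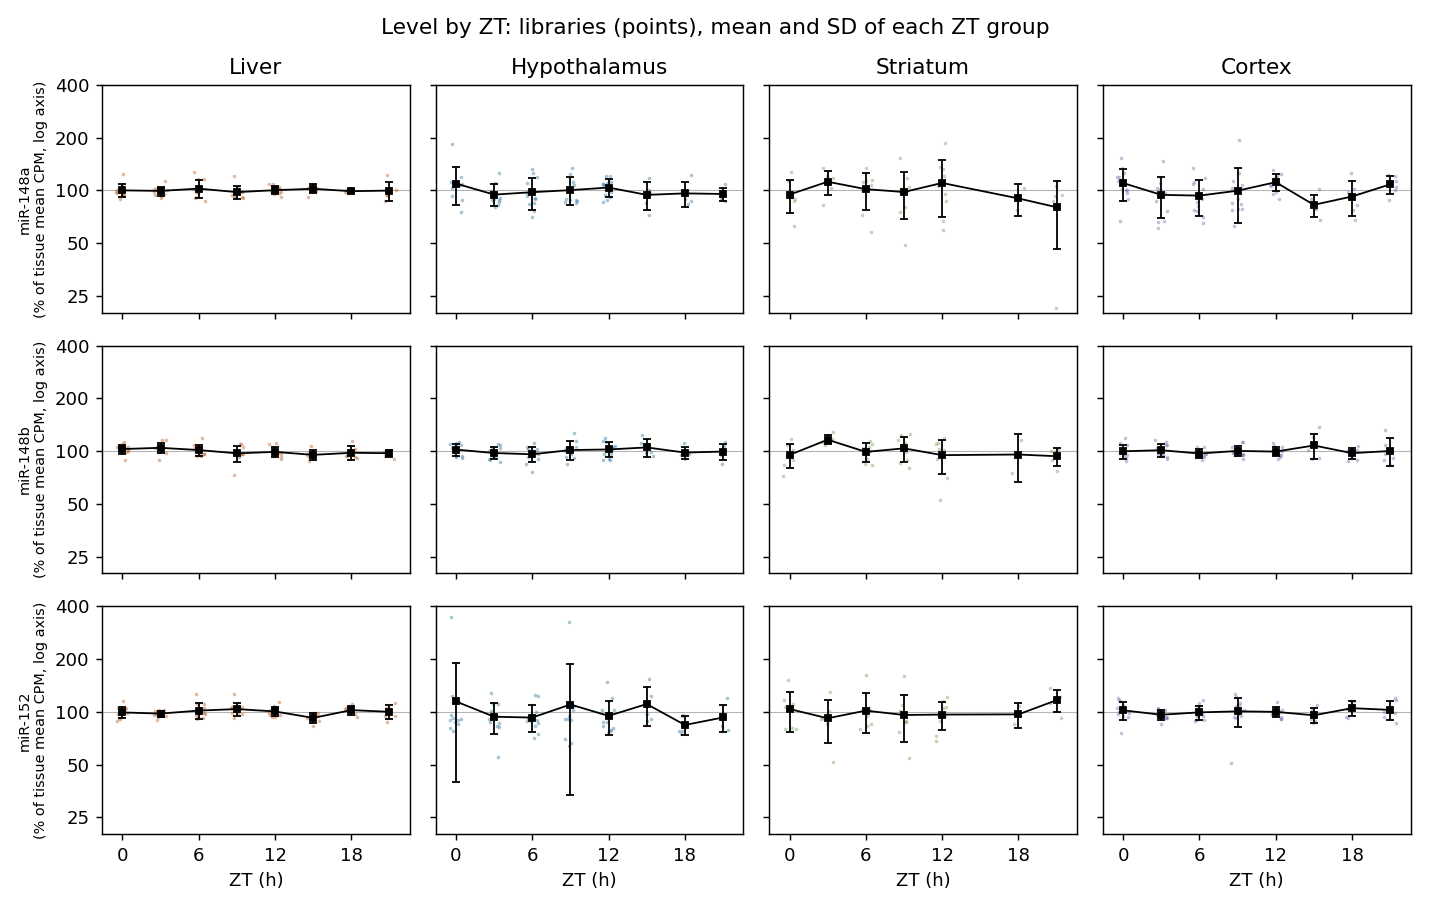
Level of each member by ZT in each tissue, as % of the member's mean CPM in that tissue (log axis); points are libraries, squares and bars are the mean and SD of each ZT group. The liver means of miR-148a stay within a ratio of 1.05 from lowest to highest, and the wide bars of miR-152 in hypothalamus at ZT0 and ZT9 come from 1 library each.

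The members did not all repeat their level between the passages at the same ZT, and the exception was cortex. The passages were of different animals, and in cortex those of the second had the higher identifier numbers at each ZT. What the numbers stand for is not given, so the day and the animal series cannot be told apart. The lighting on the second day is not given in the sources used here, and the ZT is that of the labels. At ZT0 to ZT12, miR-148a in cortex had 3012, 4348 and 7417 CPM as lowest, median and highest library in the second passage and 2349, 3299 and 5903 CPM in the first. Its mean was 4378 ± 823 CPM in the second passage and 3442 ± 834 CPM in the first (SD, n = 30 each). The second passage was higher by a log2 ratio of 0.33 ± 0.08 with ZT as a factor, with an adjusted p of 0.000952 by edgeR's quasi-likelihood test. This stood among many: 32.9% of 377 features were called between the passages in cortex. miR-152 was lower in the second passage, at 93.0 ± 10.4 CPM against 99.5 ± 10.8 CPM in the first (SD, n = 30 each), a log2 ratio of −0.13 ± 0.05 with an adjusted p of 0.0196 by edgeR; that call was lost under several other settings, among them library totals (−0.10), no filter on low counts (−0.13) and library run as a term (−0.13). miR-148b had 1681 ± 97.9 CPM in the second passage and 1744 ± 141 CPM in the first, a log2 ratio of −0.09 ± 0.04 with an adjusted p of 0.0634.

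The miR-148a difference in cortex was uneven over the ZT groups. At ZT3 the mean was 4347 CPM in the second passage and 2899.9 CPM in the first, and the groups of 6 did not overlap, with 3731 CPM the lowest of the second and 3665 CPM the highest of the first. At ZT6 the means were 4153 and 3022 CPM, and at ZT9 they were 4606 and 3047 CPM, second passage before first. At ZT0 they were 4311 and 4156 CPM and at ZT12 4472 and 4088 CPM. The passages overlapped at each of these ZTs other than ZT3. The direction held in each of the 5 library runs with at least 2 libraries of each passage, with a ratio of means from 1.14 to 1.46. Leaving out any 1 of the 60 libraries gave log2 ratios from 0.28 to 0.36, all called, and leaving out ZT9 replicate 9 and ZT0 replicate 1, the cortex libraries with the lowest neuron markers, gave 0.31. The first-passage animals at ZT3, ZT6 and ZT9 mostly had lower identifier numbers than those at ZT0 and ZT12. The part of the animal series in the difference was not tested.

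In the other tissues no member was called between the passages, and the share of all features called was 0% in liver, 0% in hypothalamus and 0% in striatum. The features with an unadjusted p under 0.05 by edgeR numbered 11, 4 and 47 in these tissues, and DESeq2 called 1, 0 and 0. miR-148a in the second passage stood at a log2 ratio of −0.10 ± 0.03 in liver (adjusted p 0.239 by edgeR), −0.03 ± 0.09 in hypothalamus and −0.15 ± 0.14 in striatum. The difference between tissues was itself tested, as an interaction added after the data were seen. For miR-148a the passage difference in cortex exceeded that in liver by 0.41 ± 0.09 on the log2 scale (adjusted p 0.00163 by edgeR; 6.47% of all features called), that in striatum by 0.48 ± 0.15 (adjusted p 0.0186; 12% called) and that in hypothalamus by 0.31 ± 0.12 (adjusted p 0.053; 15.2% called). For miR-152 the difference in cortex was below that in striatum by −0.29 ± 0.10 (adjusted p 0.0425 by edgeR). That call was lost with library totals (−0.25; adjusted p 0.0992), without the filter on low counts (−0.27; 0.201), with library run as a term (−0.25; 0.135) and without the libraries that stood apart (−0.28; 0.0587).

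Cell type markers were compared beside this. In cortex the neuron markers summed to 14520 ± 2725 CPM in the second passage and 15599 ± 3634 CPM in the first (SD, n = 30 each). Most of the neuron sum in cortex was miR-128-1. White blood cell markers summed to 3536 ± 921 and 3994 ± 1303 CPM, and choroid plexus and epithelial markers to 7666 ± 3296 and 7726 ± 6781 CPM, second passage before first. Over the 78 cortex libraries miR-148a correlated with the neuron sum at r = −0.57 and with the white blood cell sum at r = −0.55, as a description over libraries that share runs and depth. The part of these cells in the passage difference was not tested.

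**Figure D4:**
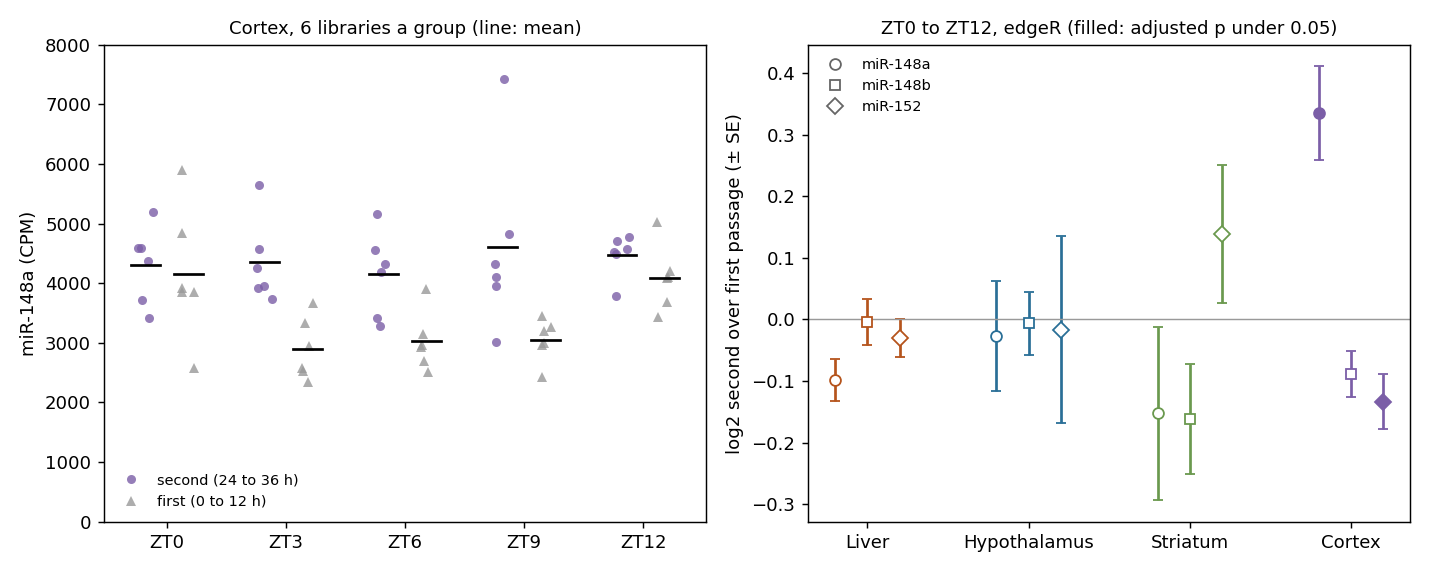
Left, miR-148a (CPM) in each cortex library by ZT, second passage (24 to 36 h) left of first (0 to 12 h), with lines at the means of 6 libraries. Right, log2 ratio of second over first passage of each member in each tissue with its SE; filled symbols had an adjusted p under 0.05 in edgeR's test, which were miR-148a (0.33) and miR-152 (−0.13) in cortex.

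Whether members varied together among the libraries of a tissue was asked for 3 pairs in 4 tissues, with p-values from permutation adjusted over the 12. In striatum miR-148a and miR-152 varied against each other, with Pearson's r = −0.57 and Spearman's rho = −0.55 over 46 libraries (adjusted permutation p of 0.00018 and 0.00042). The value was −0.51 without the 2 libraries farthest from the median of miR-148a, −0.62 without the libraries that stood apart and −0.60 after removing the mean of each library run, and it was negative in 3 of 3 runs, from −0.76 to −0.47. The sum of choroid plexus and epithelial markers moved with it. In striatum this sum ran from 8784 to 105394 CPM with a median of 15194. It correlated at r = 0.77 with miR-152 and r = −0.55 with miR-148a over the 46 libraries, a description only. The sum was mostly miR-204, with a mean of 23622 CPM against 24112 for the whole list. miR-204 alone had r = 0.78 with miR-152, so the sum says little of the epithelial markers. Red blood cell markers, which summed to 198 to 1521 CPM, moved likewise, at r = 0.61 with miR-152 and r = −0.64 with miR-148a. So did vessel and mural markers, at r = 0.53 and r = −0.40. Pituitary markers had r = 0.48 with miR-152 and 0.04 with miR-148a. Neuron markers went the other way, at r = −0.26 with miR-152 and 0.23 with miR-148a. Striatum ZT9 replicate 9, with the highest choroid plexus and epithelial sum, had 2874 CPM of miR-148a and 112.4 CPM of miR-152. Striatum ZT0 replicate 4, at 80534 CPM of the choroid plexus and epithelial markers, had 107 CPM of miR-152. The part of these cell types in the relation was not tested.

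In the other tissues the relations between members did not hold up as well. In hypothalamus miR-148a and miR-148b had r = 0.49 (rho = 0.51) over 72 libraries, with an adjusted permutation p of 0.00018, and r = 0.13 once the mean of each run was removed. Without the 2 libraries farthest from the median r was 0.51. miR-148a and miR-152 had r = 0.47 (rho = 0.23; adjusted permutation p of 0.00064 and 0.0926) in hypothalamus, and r = 0.18 without the 2 farthest libraries, which were those with pituitary markers, so the relation rests on them; with the run means removed and these libraries kept it was 0.52. miR-148b and miR-152 had r = 0.28 (rho = 0.28; adjusted permutation p of 0.0399 and 0.0464) there, and r = 0.27 with the run means removed. In cortex miR-148a and miR-152 had r = −0.35 (rho = −0.15; adjusted permutation p of 0.00609 and 0.263) over 78 libraries and r = −0.21 without the 2 farthest, so it too rests on single libraries, among them ZT9 replicate 9, which had the highest miR-148a, 7417 CPM, and the lowest miR-152, 49.3 CPM, of the tissue. miR-148a and miR-148b had r = −0.09 in cortex and r = −0.35 with the run means removed, with an adjusted permutation p of 0.00657. In liver the 3 pairs had r from 0.15 to 0.22 over 77 libraries, with adjusted permutation p-values of 0.113 to 0.257. For miR-148b and miR-152 in liver rho was 0.31 (adjusted permutation p of 0.0195), and r was 0.38 (0.00176) without ZT9 replicate 4, which had the lowest miR-148b of the tissue, 956 CPM, and 300.1 CPM of miR-152, a value near the highest.

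**Figure D5:**
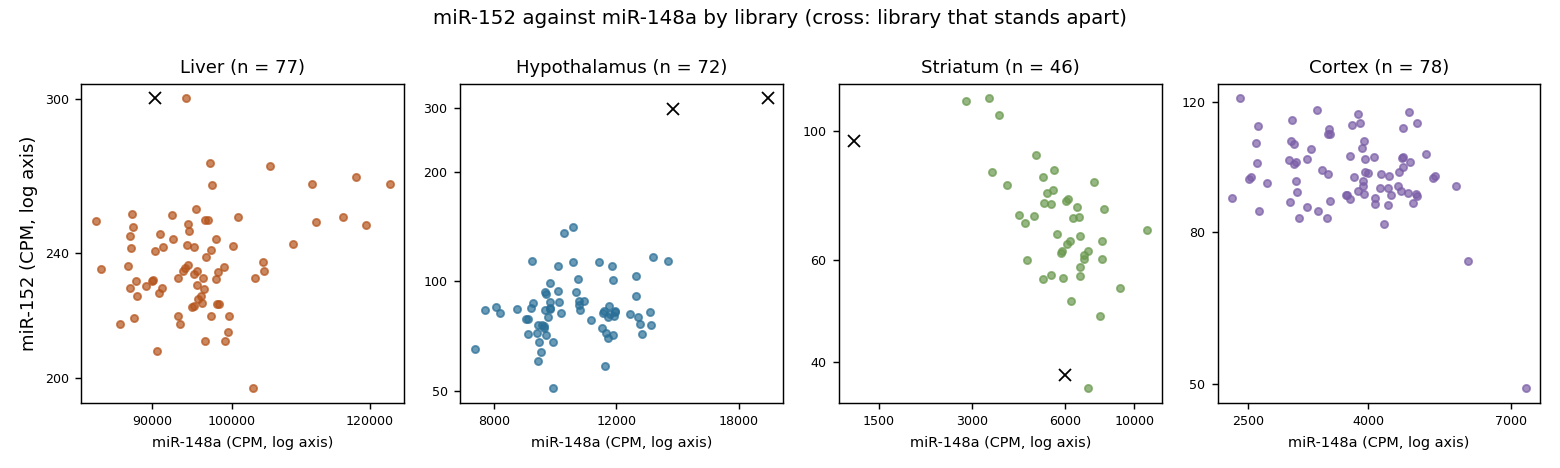
miR-152 against miR-148a (CPM, log axes) in each library of liver, hypothalamus, striatum and cortex; crosses are libraries that stand apart from their tissue. Striatum slopes downward (r = −0.57), and the hypothalamus crosses at 297 and 318 CPM of miR-152 lie far above the other libraries.

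The miRNAs whose pattern was most like a member's were ranked by Pearson's r over the 31 means of log2 CPM of tissue and ZT groups, among 346 features. These r follow mostly the tissues, and are descriptions. miR-148a was closest to miR-3105 (r = 0.99), miR-215 (0.99), miR-10a (0.98), miR-194-1 (0.96) and miR-28a (0.96), all of which stood highest in liver. miR-10a, which lies in a Hox gene cluster, had 49948 CPM in liver and 272 CPM in cortex. miR-152 was closest to miR-214 (0.99), miR-203 (0.99), miR-511 (0.98), miR-871 (0.97) and miR-223 (0.97), the last of which is a miRNA of myeloid cells with 55.5 CPM in liver and 12.5 CPM in cortex. miR-148b had its own, flatter pattern, closest to miR-23b (0.93), miR-24-2 (0.89), miR-30a (0.88), miR-27b (0.87) and miR-15a (0.83). miR-23b and miR-27b are cut from 1 primary transcript; miR-23b had 864 CPM in liver and 1702 CPM in cortex.

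Within liver, over its 77 libraries and 96 features of at least 100 CPM, the closest to miR-148a were miR-802 (r = 0.61), miR-182 (0.61) and miR-92a-1 (0.55). The closest to miR-148b were miR-351 (0.61), miR-222 (0.54) and miR-92a-1 (0.49), and to miR-152 miR-26b (0.53), miR-99b (0.52) and miR-183 (0.51). miR-802, with 409 CPM in liver, is on the hepatocyte marker list, which summed to 314223 CPM there. The hepatocyte sum as a whole had r = −0.49 with miR-148a and −0.50 with miR-152. CPM are parts of the same library total, so a sum this large and the other counts are not free of each other. The relation to hepatocytes was not tested. Within the brain, a ranking added after the data were seen, miR-148a was closest to miR-708 in striatum (r = 0.91 over 46 libraries) and to miR-344b in cortex (r = 0.80 over 78).

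Other miRNAs known to act on cholesterol and lipid genes were set beside the family. Of 14 such hairpins, all tested, 8 were called higher and 3 lower in liver over cortex and over striatum, and 9 higher and 4 lower in liver over hypothalamus. Of all features, 27.3%, 28.7% and 29.2% were called higher and 53.4%, 53.1% and 52.4% lower in liver over cortex, striatum and hypothalamus. With library totals 4 of the 14 were called higher and 6 lower in liver over cortex, where 11.8% of all features were called higher and 72.5% lower. The median log2 ratio of the 14 in liver over cortex was 1.41 with TMM, against −1.31 for all features. With library totals it was −0.52, against −3.23 for all features. The most abundant of the 14 in liver were miR-27b at 26261 ± 2586 CPM (SD, n = 77), miR-122, the hepatocyte miRNA, at 21398 ± 1647 CPM and miR-378a, which lies in the gene of the coactivator Ppargc1b, at 12561 ± 1016 CPM. All 3 were below miR-148a there. With TMM miR-378a was 4.11 ± 0.04 higher in liver over cortex on the log2 scale and miR-27b 1.33 ± 0.04. However, miR-27b had fewer CPM in liver than in cortex, where it had 39370 ± 3780, and was not called with library totals. The list holds markers of other cells too, among them miR-122 (hepatocyte), miR-128-1 (neuron), miR-144 (red blood cell), miR-223 (white blood cell) and miR-96 (epithelium). Over the day, 2 of the 12 tested in liver were called, which are named here after their values were seen, against 4.98% of all features: miR-223, with a distance from trough to peak of 0.65 on the log2 scale, and miR-185, with 0.26. Between the cortex passages 2 of 13 were called higher and 5 lower, against 32.9% of all features called in either direction. The most abundant of the list in cortex were miR-27b, called lower in the second passage at −0.14 ± 0.05, miR-128-2, called lower at −0.26 ± 0.05, and miR-128-1, at −0.15 ± 0.08 and not called.

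Of 7 hairpins known to act on DNA methyltransferases, 2 were called higher and 2 lower in liver in each brain pair, where 27.3% to 29.2% of all features were called higher and 52.4% to 53.4% lower. With library totals 0 of the 7 were called higher and 5 lower in liver over cortex, where 11.8% of all features were called higher and 72.5% lower. Between brain regions 0 of the 7 were called, against 28.3% of all features in hypothalamus over cortex, 14.5% in striatum over cortex and 13.5% in hypothalamus over striatum. miR-143 had 33729 ± 5136 CPM in liver and 24963 ± 4262 CPM in cortex and was 2.36 ± 0.05 higher on the log2 scale with TMM. miR-29a had 3774 ± 416 CPM in liver and 20214 ± 1662 CPM in cortex, with a log2 ratio of −0.51 ± 0.03 that was not called, and miR-140, with 1073 ± 106 CPM in liver and 1945 ± 131 CPM in cortex, was at 1.05 ± 0.02. In liver 2 of the 7 were called over the day and are likewise named after their values were seen, against 4.98% of all features, miR-29b-1 with a distance of 1.66 on the log2 scale at a mean of only 4.86 CPM and miR-342 with 0.49. Between the cortex passages 0 of the 7 were called, against 32.9% of all features.

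The miRNAs of the miR-130 and miR-301 family hold the bases AGUGCA, 6 of the 7 seed bases of the members, 1 base nearer their 5′ end. They are shown with their own seed in capitals.
miR-130a-3p: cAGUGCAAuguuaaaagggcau
miR-130b-3p: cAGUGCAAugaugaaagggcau
miR-301a-3p: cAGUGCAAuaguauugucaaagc
Of 6 hairpins listed, 4 were tested. In liver over each brain region miR-130a was called higher and the other 3 lower, against 27.3% to 29.2% of all features called higher and 52.4% to 53.4% lower. The counts in liver over cortex were also 1 and 3 with library totals, against 11.8% and 72.5% of all features. miR-130a had 1191 ± 117 CPM in liver and 323 ± 62.3 CPM in cortex, 3.80 ± 0.06 higher on the log2 scale with TMM. miR-301a had 91.1 ± 17.9 CPM in liver and 873 ± 152.1 CPM in cortex, with a log2 ratio of −1.35 ± 0.05 with TMM. None was called for a 24 h rhythm in a tissue, where 0.254% to 4.98% of all features were called. Nor was any called between brain regions, against 13.5% to 28.3% of all features called in either direction. Between the cortex passages 3 of the 4 were called higher in the second: miR-301a at 0.24 ± 0.05, miR-301b at 0.25 ± 0.06 and miR-130b at 0.09 ± 0.03, against 32.9% of all features called in either direction.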

How the data were processed

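The deposited files hold raw counts per miRNA hairpin, 1 table per tissue. Per the submitters' processing notes the authors used STAR 2.7.3a, HTSeq 0.10.0 and GRCm38/mm10; trimming, the miRBase release and the treatment of reads that map to several hairpins are not given in the sources used here. Per the labels' protocols, total RNA was extracted with a miRNeasy kit and its small fraction enriched. Reads shared by near-identical copies may be split between them or left out, and arms are added in a hairpin. Ranks and shares of all counts, those of the members included, depend on this. The mature strands of the members differ by 2 or 3 bases.

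Of 1226 hairpins, 222 had no count. Counts were tested with edgeR 4.0.16 (quasi-likelihood F test, TMM, filterByExpr, Benjamini-Hochberg over all features tested; R 4.3.3, limma 3.58.1), with ZT as a factor between tissues and between passages and with a cosine and a sine of 24 h for rhythm. CPM, ratios (0.5 counts added), permutation tests (100000 resamples) and correlations were computed in Python 3.11.15 with SciPy 1.17.1. The scripts were tested on simulated data. Alternatives were DESeq2 1.42.0, its size factors, library totals, no filter, the replicate number or library run as a term, and leaving libraries out; the passage differences between tissues, the fit without 2 cortex libraries and the brain likeness rankings were added after the data were seen.

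Groups are tissue and ZT, and the libraries of a group are of separate animals. Most animals gave libraries of several tissues, which the main tests between tissues treat as separate. With the animal as a block, the tissue differences of the members and all 18 ratio tests kept their sign and call. Members, lists and markers were chosen with earlier results of these data known. Named miRNAs were the members, for each member the 5 with the highest r over group means and the 3 with the highest r over liver libraries, and the 3 most abundant of each list in the tissue concerned.

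Libraries of an animal are paired across tissues by the animal identifier in the labels. Their deviations from group means correlated at a mean r of 0.00 (352 pairs), as did libraries of different animals in different tissues (27256 pairs). A library that stood apart lay more than 3 interquartile ranges below the lower quartile of its tissue in rank correlation with the tissue's median, or had a total under 100000. Depth limits the precision of the scarce miR-152 most.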

Additional observations from a re-analysis of the deposited data

Results flagged for a closer look

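In 3 of the 48 cases of a member in a group of 4 to 10 libraries, the highest or the lowest library lay far from the rest by Dixon's criterion, which chance alone meets in about 1 of 20 groups. miR-152 had 297 CPM in hypothalamus ZT9 replicate 8, against 58.4 to 98.9 CPM in the other libraries of that group of 10; its pituitary markers summed to 81149 CPM, against a hypothalamus median of 1077. miR-148a had 1247 CPM in striatum ZT21 replicate 3, against 5086 to 6193 CPM in the others of that group of 5; its hepatocyte markers summed to 7511 CPM and its choroid plexus and epithelial markers to 36285 CPM, against striatum medians of 2253 and 15194. miR-152 had 114 CPM in striatum ZT6 replicate 5, against 55.7 to 73.9 CPM in the others of that group of 8, with 25492 CPM of the choroid plexus and epithelial markers.

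The difference between the passages was not the same in all tissues by edgeR's test of the interaction. For miR-148a the log2 ratio of second over first passage was higher in cortex by 0.41 than in liver and by 0.48 than in striatum, and for miR-152 it differed by −0.29 between cortex and striatum, a call that was lost with library totals, without the filter on low counts, with library run as a term and without the libraries that stand apart (adjusted p from edgeR 0.0587 to 0.201). The part of cell make-up in these differences was not tested.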

How the results depend on the processing

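With library totals, the log2 ratio of miR-148b was −0.39 for liver over cortex, 0.0082 for liver over striatum and 0.39 for liver over hypothalamus. For hypothalamus over cortex miR-152 was 0.15 with DESeq2's size factors and 0.16 with DESeq2. Between passages, liver miR-148b was 1.65e-05 with size factors, 0.036 with totals, 0.00056 with no filter and 0.010 with run as a term; liver miR-152 was 0.0070 with totals, and hypothalamus miR-148b 0.00042. Without the libraries that stand apart, hypothalamus miR-148a was 0.0177, miR-148b 0.0178 and miR-152 0.042. These passage values lay near 0 and were uncalled in every one of these fits. In cortex miR-148b was called at −0.10 with size factors, DESeq2 and without the 2 libraries of lowest neuron markers, and miR-152 was uncalled at −0.10 with totals and −0.13 with no filter or run as a term. The miR-148a passage difference of cortex and hypothalamus was called at 0.37 with size factors, 0.38 with totals, 0.39 with run as a term, 0.32 without libraries that stand apart and 0.29 without the 2 cortex libraries; that of miR-152 in cortex and striatum was uncalled at −0.25 with totals, −0.27 with no filter, −0.25 with run and −0.28 without libraries that stand apart. The cause was not tested.

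With no filter on low counts, which tests more features, 629, 631 and 651 were called for liver over cortex, striatum and hypothalamus, 217 for hypothalamus over cortex, 96 for striatum over cortex and 105 for hypothalamus over striatum, in each case over 1.5 times the calls with it. Passage differences then had 11, 27 and 26 calls for cortex with liver, hypothalamus and striatum, against 24, 57 and 46, and 86 for hypothalamus without the 2 cortex libraries. Rhythm calls in striatum, 2 in the report, were 1 with totals or without libraries that stand apart, 4 with no filter, and 0 with DESeq2, run as a term or 0 to 21 h only; they were 4 in hypothalamus and 6 in cortex at 0 to 21 h, and 8 in cortex with DESeq2. Rhythm difference calls were 3 for liver and cortex with no filter or the animal as a block; for liver and striatum 4 with size factors or totals, and 1 without libraries that stand apart or with the animal block; 5 for liver and hypothalamus without libraries that stand apart or with DESeq2; 0 for striatum and cortex without libraries that stand apart or with the animal block; and for hypothalamus and striatum 0 with either of these and 1 with DESeq2. Passage calls in liver were 1 without libraries that stand apart and 1 with DESeq2.

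Replicate numbers do not name a shared animal or day; libraries of the same number and tissue at other ZTs correlated at a mean r of 0.14, against −0.01 for other numbers. With the number as a replicate block, rhythm calls were 25 in liver, 61 in hypothalamus, 0 in striatum and 7 in cortex, and passage calls in cortex 71. miR-148b in hypothalamus had a rhythm of 0.23, past the threshold. Passage ratios in liver were 0.013 for miR-148b, in hypothalamus 0.051 for miR-148a, 0.0067 for miR-148b and 0.055 for miR-152, and in cortex −0.11 for miR-152, which was then uncalled.

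The ratio of miR-152 to miR-148b in striatum over cortex was 0.010 with 5 counts added. Correlations that crossed the threshold or changed sign were, with run means removed, 0.13 for miR-148a and miR-148b in hypothalamus, 0.27 for miR-148b and miR-152 there, −0.35 for miR-148a and miR-148b in cortex and 0.042 for miR-148b and miR-152 in striatum; without the 2 farthest libraries, 0.18 for miR-148a and miR-152 in hypothalamus, −0.21 in cortex, and 0.31 for miR-148b and miR-152 in liver; and without libraries that stand apart, 0.18 in hypothalamus and 0.27 in liver for miR-148a and miR-152, and 0.38 for miR-148b and miR-152 in liver.

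Leaving out 1 library at a time, miR-148b between cortex passages was −0.11 to −0.071, rhythm calls were 1 to 2 in hypothalamus and 1 to 2 in striatum, and rhythm difference calls were 0 to 4 for hypothalamus and striatum, 1 to 12 for liver and striatum and 0 to 4 for striatum and cortex.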
